A study of Mus musculus with 4 samples.

Results

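Tight junctions are built from claudins, occludin, adhesion molecules of the immunoglobulin family and scaffold proteins, and 9 genes for such proteins were followed here through the cells of pancreatic tumors: the claudin genes Cldn2, Cldn3, Cldn4, Cldn7, Cldn18 and Cldn23, the occludin gene Ocln, Tjp1, which encodes the scaffold ZO-1, and F11r, which encodes the adhesion molecule JAM-A. They were chosen by name, as 9 of the 27998 genes in the deposited count tables, and each had 1 entry there. The tumors came from 2 KPC mice on a C57BL/6J background. All samples share the KPC genotype, which includes Trp53LSL-R172H/+ and Pdx1-Cre, a Cre driven by the Pdx1 promoter, active in the pancreatic lineage, that switches on the R172H form of Trp53. Ages are not given in the sources used here. Each tumor was measured in 2 fractions by droplet single-cell RNA sequencing of 3′ ends: all live cells (negative for the dye DAPI), and a sorted CAF fraction, meant for cancer-associated fibroblasts, of DAPI-CD45-CD31-EpCAM-PDPN+ cells. This gave 4 libraries, called all live 1 and 2 and sorted CAF 1 and 2, with the number naming the tumor. UMIs count transcript molecules once each, so levels in counts per 1000000 UMIs (CPM) need no scaling by gene length.

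Claudins span the membrane 4 times and polymerise into the strands that close the space between neighbouring cells, and the set of claudins a cell makes sets which ions and solutes can pass. Claudin-3 and claudin-4 are known mainly as sealing claudins, claudin-2 forms channels for small cations and water, claudin-7 is known to bind the adhesion molecule EpCAM, and claudin-18 is a claudin of stomach and lung epithelium. Occludin accompanies claudins in epithelial strands, while ZO-1 and JAM-A also serve endothelial and other cell contacts.

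The promoters of the members on which the epithelial comparison turns are shown first, with those of Ocln and F11r, whose levels moved less, for contrast. In the GENCODE M21 annotation of GRCm38, Cldn4 (chr5:134945119-134946934, minus strand) and Cldn3 (chr5:134986214-134987472, plus strand) are single-exon genes that point away from each other, with 39279 bases and 0 annotated genes between them. Cldn7 lies at chr11:69964779-69967885 (plus), Ocln at chr13:100496507-100552718 (minus) and F11r at chr1:171437535-171464603 (plus). Cldn2 lies at chrX:139800828-139811386 (plus), Cldn18 at chr9:99689461-99717267 (minus), Cldn23 at chr8:35824712-35826559 (minus) and Tjp1 at chr7:65296165-65527781 (minus). The 3′ end of Cldn3 overlaps the antisense gene Wbscr25 by 40 bases and Cldn18 overlaps the antisense gene Gm16004 by 8869 bases; the sources used here do not say whether the counting used strand, so reads of these pairs may not be told apart. RefSeq promoter windows on GRCm38.p6 matched 8 of the 9 members by symbol (11 windows, not Cldn23). The 250 bases before a start site are given 5′ to 3′ on the gene's strand, and capitals mark matches to CAGGTG, the core bound by Zeb and Snail repressors, or to TGANTCA, the AP-1 site, searched on both strands; no matches overlapped.
Cldn3, chr5:134985964-134986213, plus: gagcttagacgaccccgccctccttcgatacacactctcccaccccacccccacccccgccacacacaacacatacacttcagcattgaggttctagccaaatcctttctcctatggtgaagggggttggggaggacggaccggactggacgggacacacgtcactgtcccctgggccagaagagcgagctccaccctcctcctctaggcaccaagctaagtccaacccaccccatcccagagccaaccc
Cldn4, chr5:134946935-134947184, minus: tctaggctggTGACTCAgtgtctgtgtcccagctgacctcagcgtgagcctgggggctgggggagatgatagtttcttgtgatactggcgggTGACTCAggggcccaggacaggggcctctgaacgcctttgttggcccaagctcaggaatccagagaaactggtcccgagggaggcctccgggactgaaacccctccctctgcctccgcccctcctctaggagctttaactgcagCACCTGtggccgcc
Cldn7 (its second window), chr11:69965171-69965420, plus: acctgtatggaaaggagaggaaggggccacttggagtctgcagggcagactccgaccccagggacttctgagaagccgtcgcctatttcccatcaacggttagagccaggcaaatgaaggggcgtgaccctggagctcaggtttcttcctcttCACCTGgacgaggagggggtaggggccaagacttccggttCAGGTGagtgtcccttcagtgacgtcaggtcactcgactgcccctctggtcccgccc
Ocln (its second window), chr13:100552499-100552748, minus: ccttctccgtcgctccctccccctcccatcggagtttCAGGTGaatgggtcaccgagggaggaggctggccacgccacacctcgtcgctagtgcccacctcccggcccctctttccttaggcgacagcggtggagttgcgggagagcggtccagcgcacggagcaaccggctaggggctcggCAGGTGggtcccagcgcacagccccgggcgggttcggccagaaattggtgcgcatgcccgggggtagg
F11r, chr1:171437311-171437560, plus: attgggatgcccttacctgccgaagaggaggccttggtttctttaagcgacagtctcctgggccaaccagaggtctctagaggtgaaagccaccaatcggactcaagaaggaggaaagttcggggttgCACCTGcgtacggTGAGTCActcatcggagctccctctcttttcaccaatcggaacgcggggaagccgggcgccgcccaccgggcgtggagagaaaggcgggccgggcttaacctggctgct

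The Cldn4 window held CACCTG with its first base 14 bases before the start and TGACTCA at 240 and 158 bases before it, while the Cldn3 window held neither motif. The second Cldn7 window held CACCTG and CAGGTG at 97 and 57 bases before the start, the second Ocln window held CAGGTG at 213 and 68, and F11r held CACCTG at 122 and TGAGTCA at 109. The first windows of Cldn7 and Ocln, and the windows of Cldn2, Cldn18 and Tjp1, held none of them. The grainyhead core AACNNGTT was in none of the 11 windows. Of all 32851 RefSeq windows (each with 50 bases past the start as well), 17.2% held CAGGTG, 6.75% TGANTCA and 3.64% AACNNGTT. These are matches of letters and not measured sites.

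The 4 libraries held 8282 barcodes, with median counts between 3287 and 13764 UMIs, and 7827 cells were kept. Pairs of libraries shared between 4 and 6 barcodes. The genes of the gate went partly with the sort. For the CD45 gene Ptprc, both all live libraries (29.7 CPM for tumor 1, 345 for tumor 2) lay above the sorted ones (0.573 and 5.48 CPM). Epcam was at 44.2 and 227 CPM in all live 1 and 2 and 6.13 and 34.7 CPM in sorted CAF 1 and 2. Pdpn (podoplanin) was at 39.3 and 30.9 CPM before the sort and 39.8 and 219.5 CPM after it, and Pecam1 (CD31) at 103 and 33.5 CPM before and 66.8 and 30.4 CPM after. Classes were rebuilt by clustering with all junction genes left out and are called by marker genes; they are not an annotation by the authors. Ductal epithelial-like clusters were called Epcam-rich where their summed Epcam level was at least 500 CPM and Epcam-low otherwise, so Epcam itself is not a result between them. The Epcam-low class (2 clusters) held 694 cells of all live 1 and 663 of sorted CAF 1, but 2 cells in each library of tumor 2. The Epcam-rich class (1 cluster) held 33, 0, 161 and 87 cells of all live 1, sorted CAF 1, all live 2 and sorted CAF 2. All 12 ductal markers were seen in each epithelial library sum of at least 20 cells, at a summed level of 11112 to 24265 CPM. Thus 663 of the 1386 kept cells of sorted CAF 1 were classed as ductal epithelial-like by their RNA, against the label of that library. A further 108 and 284 cells of sorted CAF 1 lay in 2 clusters whose best marker list was also ductal epithelial. These clusters had too few markers for a name (under 3) and are in no class here. The cell numbers of the other classes, in the same order, were 123, 142, 11 and 51 mesothelial-like, 21, 0, 30 and 2 blood endothelial-like, and 143, 184, 118 and 906 fibroblast-like cells. In every comparison of classes the UMIs of each class were summed over both fractions of a tumor (sums of at least 20 cells), so the Epcam-low class is 1 tumor sum and each other class is 2. The lone sum is assumed to vary like the others, and genes that vary together with the clustering genes can have p-values that are too small.

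Epcam-rich cells carried far more Cldn3, Cldn4 and Cldn7 RNA than Epcam-low cells. Cldn3, Cldn4 and Cldn7 were higher by 8.32 ± 0.98, 8.28 ± 1.34 and 4.31 ± 0.86 on the log2 scale (SE, edgeR's quasi-likelihood test, adjusted p = 0.00524, 0.0124 and 0.0262, 2 tumor sums against 1). These were 3 of the 9 members, and 0 were lower, where 2.22% of the 13266 genes tested were higher; the median log2 difference was 2.46 over the members and 0.02 over all genes. Ocln, Tjp1 and F11r, the members that are not claudins, did not pass.

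**Figure D1:**
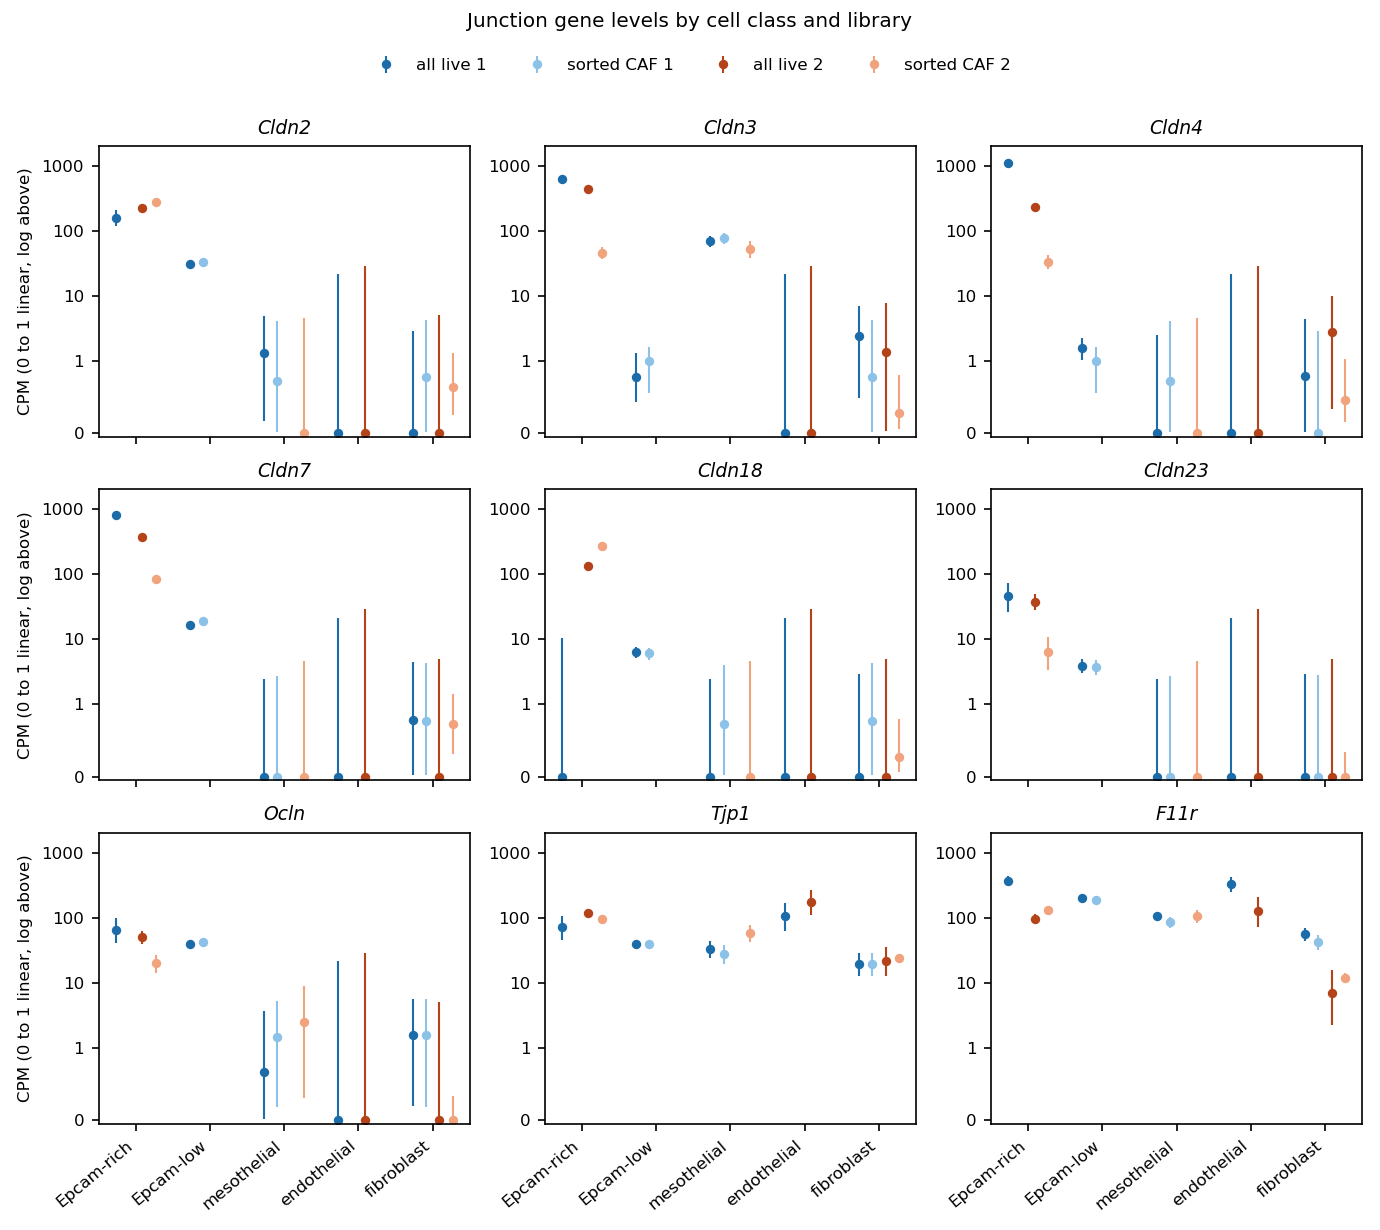
Levels of the 9 genes (CPM of summed UMIs, linear from 0 to 1 and logarithmic above) in the 5 classes, 1 panel per gene, 1 point per library sum of at least 20 cells, with exact 95% Poisson intervals for counting error. Cldn3, Cldn4 and Cldn7 fall from 235 to 1095 CPM in the Epcam-rich cells of the all live libraries to 0.776 to 19.1 CPM in Epcam-low cells, while the Tjp1 and F11r points of these 2 classes lie much closer together.

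Cldn3 stood at 615 CPM in the Epcam-rich cells of all live 1 (95% interval 536 to 703), 442 in all live 2 (409 to 477) and 45.4 in sorted CAF 2 (36.6 to 55.6). In Epcam-low cells it stood at 0.776 CPM in all live 1 (0.424 to 1.30) and 0.996 in sorted CAF 1 (0.557 to 1.64), from 14 and 15 UMIs. The Epcam-low values lie near the 0.273 to 2.36 CPM of fibroblast-like cells, and every Epcam-rich library lies above every Epcam-low one. Cldn4 stood at 1095 CPM in Epcam-rich cells of all live 1 (988 to 1210), 235 in all live 2 (211 to 261) and 33.5 in sorted CAF 2 (26.0 to 42.5). In Epcam-low cells it stood at 1.55 (1.03 to 2.24) and 0.996 CPM (0.557 to 1.64) in all live 1 and sorted CAF 1. Cldn4 was thus high in both all live libraries and low in both Epcam-low sums, and again did not overlap.

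Cldn7 stood at 808 CPM (717 to 908), 373 (342 to 405) and 83.8 (71.7 to 97.4) in the Epcam-rich cells of all live 1, all live 2 and sorted CAF 2. In Epcam-low cells it stood at 16.2 CPM (14.4 to 18.2) in all live 1 and 19.1 (17.0 to 21.5) in sorted CAF 1. Unlike Cldn3 and Cldn4, it was above fibroblast-like cells there. Within tumor 1 alone, in 1 library, Cldn3, Cldn4 and Cldn7 stood at 615, 1095 and 808 CPM in the 33 Epcam-rich cells and at 0.776, 1.55 and 16.2 CPM in the 694 Epcam-low cells, so the difference is also present inside 1 suspension.

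Cldn2, the cation-channel claudin, stood at 159 CPM in the Epcam-rich cells of all live 1, 224 in all live 2 and 277 in sorted CAF 2, against 30.6 and 32.4 CPM in the Epcam-low cells of all live 1 and sorted CAF 1. The groups did not overlap, and the difference of 2.28 ± 0.58 (SE) missed the threshold (edgeR, adjusted p = 0.0592); with the tumor as a block it was 1.87 ± 0.48 and passed (edgeR, adjusted p = 0.0332), which made 4 members higher against 4.41% of all genes. Cldn18 was listed at 0 UMIs in the Epcam-rich cells of all live 1, which allows up to 8.51 CPM (3 counts), and stood at 135 and 274 CPM in those of all live 2 and sorted CAF 2. In Epcam-low cells it stood at 6.31 and 6.04 CPM. The Epcam-rich cells of tumor 2 lie above the Epcam-low values and those of tumor 1 cannot be placed above or below them at this depth; the difference of 3.84 ± 1.44 did not pass (edgeR, adjusted p = 0.167). Cldn23 stood at 45.4, 37.6 and 6.41 CPM in Epcam-rich cells and 3.93 and 3.72 CPM in Epcam-low cells (2.46 ± 0.82, edgeR, adjusted p = 0.14).

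Ocln stood at 65.2, 50.4 and 19.7 CPM in the Epcam-rich cells of all live 1, all live 2 and sorted CAF 2, and at 39.4 and 41.6 CPM in Epcam-low cells, inside that range (-0.30 ± 0.83, edgeR, adjusted p = 0.874). Tjp1 stood at 70.9, 119 and 94.6 CPM against 38.7 and 39.7 CPM (0.75 ± 0.54, edgeR, adjusted p = 0.457), with no overlap between the classes. F11r stood at 372, 95.3 and 131 CPM against 199 and 186 CPM (-0.22 ± 0.75, edgeR, adjusted p = 0.905), with the Epcam-low values between those of the 2 Epcam-rich tumors. On simulated data for this comparison (12447 genes tested) 25% of 4-fold changes and 100% of 16-fold changes were called. The simulated spread between sums was fixed, and only well-counted genes were changed. A smaller difference in these genes may therefore not be detectable, and a larger one can be missed where the real spread is wider.

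The calls in this comparison depended on where the class borders were drawn. Counting 2 unnamed clusters, whose best marker list was ductal epithelial and whose Epcam levels were 16.2 and 11.1 CPM, as Epcam-low gave tumor 2 an Epcam-low sum; Cldn3 and Cldn4 were then 6.48 and 4.90 higher on the log2 scale and missed the threshold (edgeR, adjusted p = 0.0507 and 0.102). With doublet calls kept, Cldn4 and Cldn7 missed it (edgeR, adjusted p = 0.0638 and 0.0523).

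The other junction genes gave few calls. Of 7 other claudins tested 0 passed, of 30 other tight junction genes 1 was higher (Ildr2), and of 24 adherens and desmosome genes 1 was higher (Epcam, which defined the classes) and 1 lower (Cdh5, the cadherin of endothelium, at 5.4 and 3.9 CPM in Epcam-low cells). The median log2 difference was 1.05 over the other claudins, 1.29 over the other tight junction genes and 0.77 over the adherens and desmosome genes, beside 0.02 over all genes. With the tumor as a block, 1, 5 and 4 genes of these lists were higher, against 4.41% of all genes. Cdh1, which encodes E-cadherin, the main adherens junction protein of epithelium, stood at 357, 293 and 162 CPM in Epcam-rich cells of all live 1, all live 2 and sorted CAF 2 and at 115 and 110 CPM in Epcam-low cells, and did not pass. Cldn6, a claudin best known from embryonic epithelium, was the most abundant claudin of Epcam-low cells at 107 and 105 CPM, and stood at 374, 103 and 84.8 CPM in Epcam-rich cells. Vim, the gene of the mesenchymal filament vimentin, stood at 2516 and 2506 CPM in Epcam-low cells and 366, 432 and 1373 CPM in Epcam-rich cells.

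**Figure D2:**
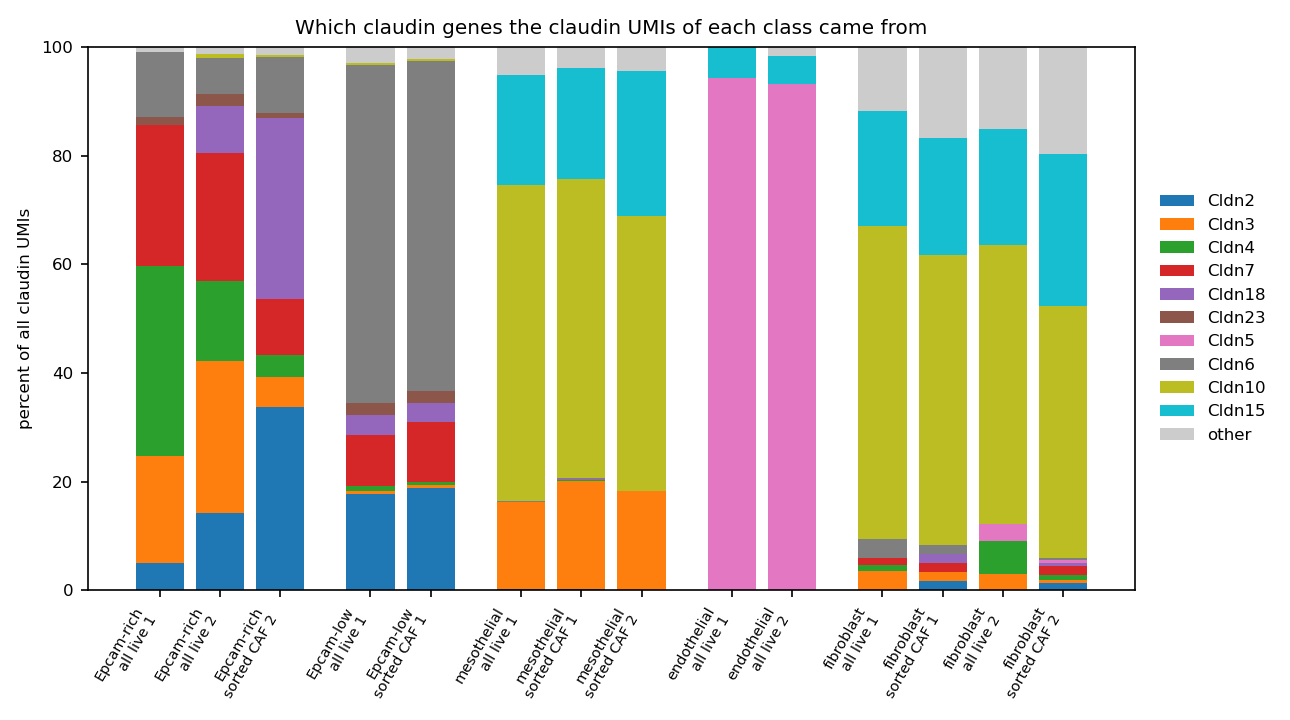
Share of all claudin UMIs (percent, bars from 0 to 100) that came from each claudin gene, for each class and library of at least 20 cells. Cldn3, Cldn4 and Cldn7 make up most of the bars of Epcam-rich cells in the all live libraries, Cldn6 takes 62.1% and 60.8% in Epcam-low cells, Cldn10 the largest part in mesothelial-like and fibroblast-like cells, and Cldn5 94.2% and 93.2% in endothelial-like cells.

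The mix of claudins thus differed between the states as a description. Cldn3, Cldn4 and Cldn7 gave 19.7%, 35.0% and 25.8% of the 1103 claudin UMIs of Epcam-rich cells in all live 1, and 27.9%, 14.9% and 23.6% of 2356 in all live 2. In Epcam-low cells of all live 1 they gave 0.450%, 0.899% and 9.41% of 3113 claudin UMIs. All claudins together stood at 3128 and 1582 CPM in Epcam-rich cells of all live 1 and 2, 819 CPM in those of sorted CAF 2, and 172 and 173 CPM in Epcam-low cells of all live 1 and sorted CAF 1.

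The Epcam-rich cells were themselves mixed. Clustered again without junction genes, they fell into 5 subgroups of 91, 84, 41, 38 and 27 cells, called A to E; what follows describes them, with no test, since the subgroups were looked at after their values were seen. Subgroup A (78 of 91 cells from all live 2) was led by Ltf and Gpa33, with Tff2 and Muc4, genes of mucous epithelium, among its leading genes. It held all 6 claudins, with Cldn3 at 508, Cldn7 at 464, Cldn4 at 347, Cldn2 at 186, Cldn18 at 102 and Cldn23 at 71.9 CPM. Subgroup B (64 of 84 cells from sorted CAF 2, 18 from all live 2) had Axl, S100a4 and Lgr5 among its leading genes, Vim at 1574 CPM and Epcam at 61.3 CPM, under the limit used for whole clusters. There Cldn3 stood at 3.64, Cldn4 at 4.16, Cldn7 at 10.4 and Cldn23 at 0.519 CPM, whereas Cldn2 stood at 282 and Cldn18 at 252 CPM.

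**Figure D3:**
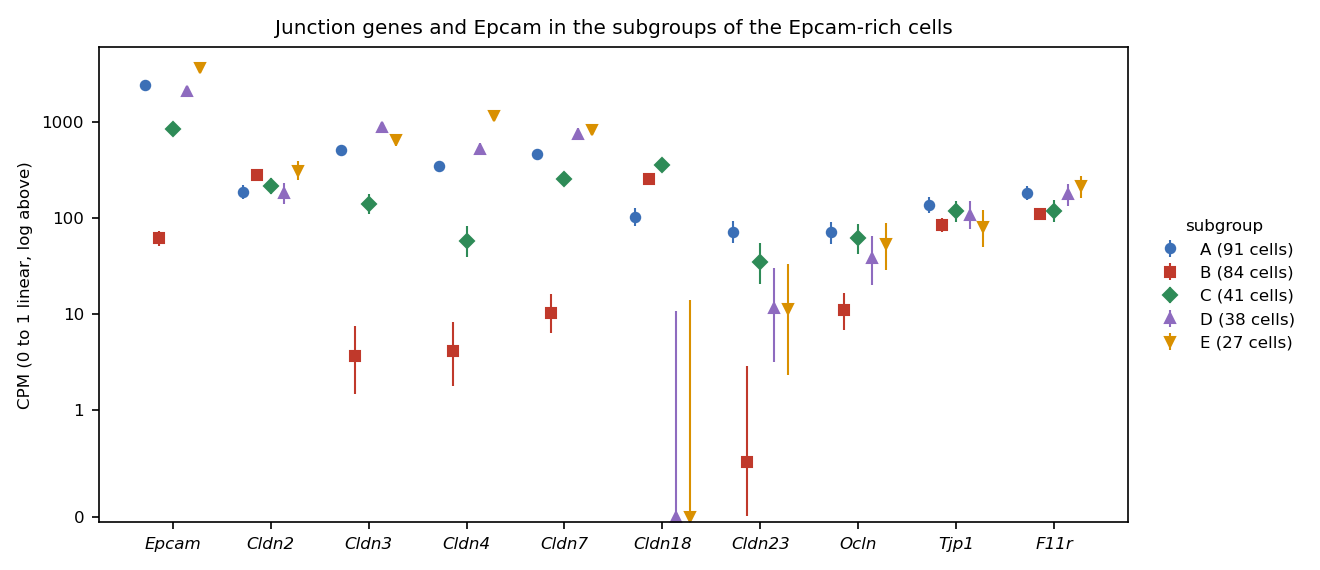
Levels (CPM, linear from 0 to 1 and logarithmic above) of Epcam and the 9 genes in the 5 subgroups of the Epcam-rich class, with exact 95% Poisson intervals for counting error. Subgroup B lies far below the others for Epcam, Cldn3, Cldn4 and Cldn7 and among them for Cldn2, Tjp1 and F11r; D and E have 0 Cldn18 UMIs.

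Subgroup C (30 of 41 cells from all live 2), led by the gastric mucosa genes Gkn2, Gkn1 and Tff1, had the highest Cldn18 level, 358 CPM, beside Cldn3 at 141 and Cldn4 at 57.8 CPM. Subgroups D (32 of 38 cells from all live 2) and E (22 of 27 from all live 1) had 0 Cldn18 UMIs, which allows up to 8.77 and 11.4 CPM (3 counts), and the highest levels of Cldn3 (874 CPM in D), Cldn4 (1147 CPM in E) and Cldn7 (754 and 828 CPM). Cldn2, between 181 and 311 CPM, Tjp1, between 79.8 and 136 CPM, and F11r, between 109 and 213 CPM, varied less over the 5 subgroups. Subgroup E is mostly 1 library, so its pattern may be that library's.

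With subgroup B counted as Epcam-low, tumor 2 had an Epcam-low sum of 86 cells with Cldn3 at 3.06, Cldn4 at 12.7, Cldn7 at 15.3, Cldn2 at 284, Cldn18 at 277 and Ocln at 13.8 CPM. The Epcam-low sum of tumor 1 in that fit had 31.4 CPM of Cldn2 and 6.19 CPM of Cldn18; its difference from tumor 2 was not tested. That fit was added after the low Cldn3 and Cldn4 levels of subgroup B had been seen, so its values describe the subgroup and support nothing further.

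Cell by cell, in the 161 Epcam-rich cells of all live 2, a Cldn4 UMI was seen in 77.7% of the cells with a Cldn3 UMI and 20.7% of the others, and in 37.9% of the cells with a Cldn18 UMI and 68.0% of the others. A UMI of Epcam was seen in 121 of 121 cells with a Cldn7 UMI and in 77.5% of the others. For this pair the 2 shares were both 100% in all live 1, and 78.3% and 26.6% in sorted CAF 2. These shares move with the depth of each cell and were not tested.

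Mesothelial-like cells, the lining cells of the peritoneal surface, which are themselves joined by tight junctions, carried Cldn3 and almost none of the other 5 claudins among the members. Cldn3 stood at 68.9 CPM in all live 1 (56.3 to 83.6), 76.1 in sorted CAF 1 (62.2 to 92.1) and 52.2 in sorted CAF 2 (37.6 to 70.5). The 3 libraries lie close together, far above all 4 fibroblast-like sums and both Epcam-low ones. Against fibroblast-like cells Cldn3 was higher by 6.51 ± 0.75 (SE, edgeR, adjusted p = 0.00117, 2 tumor sums against 2), the 1 member of 9 that passed, where 1.68% of genes were higher. Against Epcam-low epithelial cells it was higher by 5.89 ± 0.88 (edgeR, adjusted p = 9.15e-04), and by 3.99 (edgeR, adjusted p = 0.0524) where the unnamed clusters were counted as Epcam-low. In that comparison 1 member was higher and 4 were lower, where 13.9% of genes were higher and 9.61% lower.

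The 4 lower members were Cldn2, Cldn7, Ocln and Cldn23. Cldn2 gave 3 UMIs in mesothelial-like cells and 1041 in Epcam-low cells, a level 39.5 times lower (95% counting interval 13.5 to 192), and Cldn7 1 against 581 UMIs, 66.1 times lower (11.8 to 2616). Ocln stood at 0.669, 1.45 and 2.48 CPM in mesothelial-like cells of all live 1, sorted CAF 1 and sorted CAF 2 and was lower by 5.13 ± 1.04 on the log2 scale (SE). Cldn23 had 0 UMIs in mesothelial-like cells, against 127, and was at least 4.82-fold lower, with the floor of 3 counts taken over the class. The adjusted p of edgeR's test was 4.65e-04 for Cldn2, 0.00370 for Cldn7, 0.00520 for Ocln and 0.0208 for Cldn23. Without the mesothelial-like sum of tumor 1, Cldn7, Ocln and Cldn23 no longer passed (edgeR, adjusted p = 0.0620, 0.0661 and 0.165). Cldn18, with 1 against 205 UMIs, passed only with the tumor as a block (edgeR, adjusted p = 0.144 without it and 0.00126 with it), which made 1 member higher and 5 lower against 17.6% and 14.5% of genes. Tjp1, at 32.8, 27.5 and 58.4 CPM, and F11r, at 105, 84.1 and 104 CPM in the mesothelial-like cells of all live 1, sorted CAF 1 and sorted CAF 2, did not pass against Epcam-low cells (-0.20 ± 0.52 and -1.27 ± 0.73, edgeR, adjusted p = 0.826 and 0.244).

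**Figure D4:**
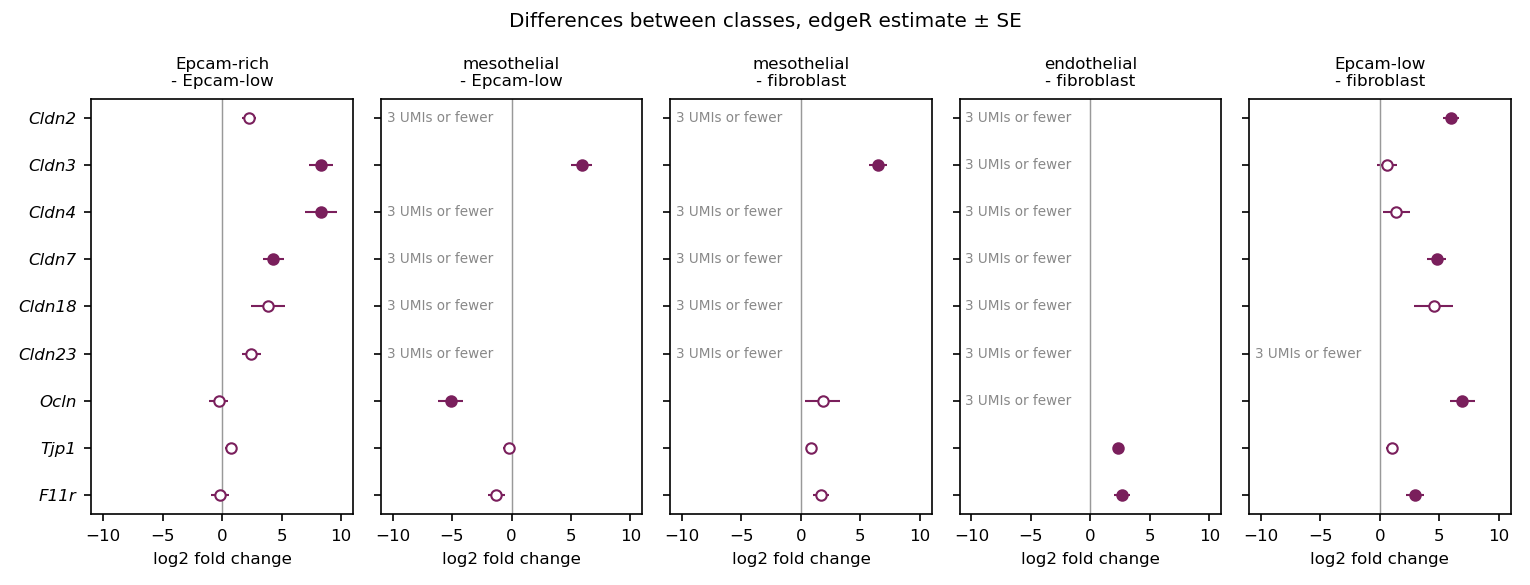
Log2 differences between classes (edgeR estimate ± SE) for the 9 genes in the 5 class comparisons; filled points passed an adjusted p of 0.05, and genes with 3 UMIs or fewer in a class have no point. Cldn3 is the gene that passed in each of the first 3 panels, and Tjp1 and F11r are the genes with a point in the endothelial panel.

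Other claudins were carried by the mesothelial-like cells instead. Cldn10, a claudin of ion-selective channels, stood at 253, 211 and 145 CPM in mesothelial-like cells of all live 1, sorted CAF 1 and sorted CAF 2, and Cldn15, another cation-channel claudin, at 88.3, 79.0 and 77.0 CPM. Both were higher than in fibroblast-like cells (2.81 ± 0.51 and 2.59 ± 0.43, edgeR, adjusted p = 0.0110 and 0.00542), the 2 of 7 other claudins that passed. Of the 30 other tight junction genes, 6 were higher in mesothelial-like than in fibroblast-like cells and 1, Amotl2, was lower. The 6 were Esam and Cxadr, which encode adhesion molecules, Cgn, which encodes the tight junction plaque protein cingulin, the polarity genes Prkcz and Pard6b, and Lsr, which encodes a protein of tricellular contacts. Cxadr, at 403, 412 and 368 CPM in mesothelial-like cells and 6.9 to 8.5 CPM in fibroblast-like cells, was higher by 5.69 ± 0.61 (edgeR, adjusted p = 5.14e-04). Of 24 adherens and desmosome genes, Ppl and Evpl, which encode the desmosomal plakins periplakin and envoplakin, were higher. Against Epcam-low cells, Cldn15, Cldn10 and Cldn1 were higher and Cldn6 lower. The shares of all genes higher and lower in this comparison are those given above with the members. Of the tight junction genes 7 were higher there, among them Ildr2, Jam3, Esam, Mpdz, Magi2 and Jam2, and 7 lower, among them Crb3, Tjp3, Marveld3, Marveld2 and Lsr. Of the adherens and desmosome genes Cdh11 and Cdh3 were higher, and Cdh1, Dsp, Cdh5, Ctnna1, Perp and Pkp2 lower.

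Blood endothelial-like cells carried no claudin of the members: Cldn2, Cldn3, Cldn4, Cldn7, Cldn18, Cldn23 and Ocln had 0 UMIs in the 21 cells of all live 1 and the 30 of all live 2, which allows up to 17.4 and 23.5 CPM (3 counts). They did carry the scaffold and the adhesion molecule. Tjp1 stood at 105 CPM (62.0 to 165) and 172 (108 to 261) in all live 1 and 2, against 19.7, 19.3, 21.8 and 24.3 CPM in the fibroblast-like cells of all live 1, sorted CAF 1, all live 2 and sorted CAF 2. F11r stood at 326 CPM (246 to 423) and 125 (71.7 to 204), against 55.1, 41.6, 6.82 and 11.9 CPM. Neither gene overlapped between the 2 classes, and both were higher, by 2.36 ± 0.48 for Tjp1 and 2.68 ± 0.69 for F11r (SE, edgeR, adjusted p = 0.00904 and 0.0333). These were 2 of 9 members, where 3.5% of genes were higher, and the same count with the tumor as a block, where 4.92% were. Without the endothelial-like sum of tumor 2, neither passed (edgeR, adjusted p = 0.124 for Tjp1 and 0.0724 for F11r), and F11r also missed the threshold without the endothelial-like sum of tumor 1 (edgeR, adjusted p = 0.291) and without the fibroblast-like sum of tumor 2 (edgeR, adjusted p = 0.135). The claudin of these cells was Cldn5, known as the claudin of endothelium, at 948 and 431 CPM against 0 to 1.4 CPM in fibroblast-like cells. It passed with Esam, Magi1 and Jam2 among the tight junction genes and with Cdh5, which encodes VE-cadherin, and Jup among the adherens junction genes, while Cldn10, Ildr2 and Cdh11 were lower than in fibroblast-like cells.

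Fibroblast-like cells, the cells the sort was meant for, held the members at or near the limit of detection, apart from Tjp1 and F11r. Cldn2, Cldn3, Cldn4, Cldn7, Cldn18 and Ocln gave between 4 and 10 UMIs each over all 1351 fibroblast-like cells, and Cldn23 gave 0. Tjp1 was level over the 4 libraries, from 19.3 to 24.3 CPM. F11r was higher in those of tumor 1 (55.1 and 41.6 CPM) than of tumor 2 (6.82 and 11.9 CPM), with intervals that do not overlap. Macrophage or monocyte-like cells showed the same order, with F11r at 56.1 CPM in all live 1 and 11.4 CPM in all live 2, and so did Krt18, an epithelial keratin gene, in the fibroblast-like cells (298, 104, 23.2 and 8.9 CPM in all live 1, sorted CAF 1, all live 2 and sorted CAF 2, beside 6104 CPM in Epcam-low cells of all live 1). All 12 ductal markers were seen in the fibroblast-like cells of all live 1, sorted CAF 1 and sorted CAF 2, and 11 in those of all live 2, with summed levels of 914, 390, 52.4 and 91.4 CPM; their part in the F11r levels was not tested. Mesothelial-like cells carried more F11r than fibroblast-like cells in each library (1.70 ± 0.65), which passed only with the tumor as a block (1.99 ± 0.42, edgeR, adjusted p = 0.00845, against 0.259 without it). With the block 2 members were higher there, against 3.25% of genes.

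Set against fibroblast-like cells, Epcam-low epithelial cells carried more of most members, with Cldn3 and Cldn4 among the exceptions. Higher were 5 of the 9 members, where 13.1% of genes were higher: Cldn2 (5.98 ± 0.65, SE, edgeR, adjusted p = 1.08e-04), Ocln (6.95 ± 1.07, 7.58e-04), Cldn7 (4.78 ± 0.83, 0.00147), F11r (2.97 ± 0.74, 0.00979) and Cldn23, with 127 against 0 UMIs and so at least 18.3-fold higher (0.00300). Cldn3 (0.61 ± 0.86) and Cldn4 (1.4 ± 1.15) did not pass (edgeR, adjusted p = 0.633 and 0.395). Cldn18 (4.53 ± 1.62) and Tjp1 (1.04 ± 0.50) passed only with the tumor as a block (edgeR, adjusted p = 1.33e-04 and 0.00514, against 0.0559 and 0.143 without it), which made 7 members higher, against 17% of genes. Of the other junction lists, Cldn6 was the 1 other claudin that was higher, and Cldn15, Cldn10 and Cldn1 were lower. The share of all genes that were lower in this comparison is not given here, so counts of lower genes cannot be set against it. Of 30 tight junction genes 12 were higher, among them Marveld3, Cxadr, Lsr, Tjp3 and Cgn, and 7 lower, led by Jam3, Ildr2, Mpdz, Amotl2, Magi2 and Jam2. Of 24 adherens and desmosome genes 12 were higher, led by Cdh1, Pkp2, Dsp, Ctnna1, Pkp3 and Perp, and 2 lower: Cdh11, the cadherin of mesenchymal cells, and Pvrl1.

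The next comparison was of the sorted CAF fraction with all live cells. Over whole libraries, Cldn3 had 11.3 CPM in all live 1, 60.3 in all live 2, 5.51 in sorted CAF 1 and 14.5 in sorted CAF 2. Cldn4 stood at 15.6, 33.4, 1.72 and 11 CPM and Cldn7 at 21.7, 47.7, 15.3 and 16.9 CPM in the same order. All 3 were lower in the sorted library of each tumor. Cldn18 stood at 4.01, 15.3, 4.32 and 47.1 CPM, Cldn2 at 25, 25, 26.7 and 38.6 CPM, Cldn23 at 3.75, 4.38, 3.66 and 1.04 CPM, Ocln at 28.5, 6.46, 34.7 and 3.39 CPM, Tjp1 at 32.4, 16.7, 37.0 and 37.6 CPM and F11r at 177, 21.5, 188 and 36.1 CPM. In edgeR's test 0 of the 9 members passed, where 0% of the 14030 genes tested were called (unadjusted, 543 genes but no member lay under 0.05; by DESeq2, 6 genes were called higher, 468 lower and 0 of them members). Library sums mix classes whose numbers the sort changed.

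Ductal epithelial-like cells were then compared between the fractions. In tumor 1, the counting intervals of each member in Epcam-low cells overlapped between the fractions, from Cldn3 at 0.776 and 0.996 CPM to Ocln at 39.4 and 41.6 CPM, with the intervals of F11r, 199 and 186 CPM, touching only at 193; the differences were not tested, and overlap does not show equal levels. In tumor 2, Epcam-rich cells of the sorted library had 45.4 CPM of Cldn3 against 442, 33.5 of Cldn4 against 235, 83.8 of Cldn7 against 373, 6.41 of Cldn23 against 37.6 and 19.7 of Ocln against 50.4, with no overlap of intervals. Cldn18 was the other way, at 274 CPM (251 to 297) against 135 (117 to 155), as was F11r at 131 (115 to 147) against 95.3 CPM (80.3 to 112). Cldn2 was also higher in the sorted library, at 277 against 224 CPM, and Tjp1, at 94.6 and 119 CPM, overlapped. These intervals cover counting error only. In the sorted library 64 of the 87 Epcam-rich cells were of subgroup B, against 18 of 161 in all live 2, and Epcam stood at 204 against 1869 CPM. The gate is given as EpCAM-negative, but the antibodies named in the labels' protocol do not include one to EpCAM; the part of the gate in these differences was not tested.

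In the test over all ductal epithelial-like cells, with 2 libraries a fraction, 0 of 9 members passed, where 0% of 11943 genes were called by edgeR (unadjusted, 77 genes but no member lay under 0.05; by DESeq2, 0 genes were called higher, 24 lower and 0 of them members). With the tumor as a block, Cldn3 was lower by 3.41 ± 0.19 on the log2 scale and Cldn4 by 3.22 ± 0.37 in the sorted fraction (SE, edgeR, adjusted p = 1.92e-04 and 0.00819), against 0.645% of genes lower. Without all live 1 both also passed in the fit with no block (edgeR, adjusted p = 0.00107 and 0.0163). Different clusters hold most of this class in the 2 tumors, the Epcam-low ones in tumor 1 and the Epcam-rich one in tumor 2, and the all live sum of tumor 1 holds 33 Epcam-rich cells where the sorted one holds 0.

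How many cells carried the genes was compared after each cell had been thinned to 3000 UMIs. A Cldn3 UMI was then seen in 72.7% of Epcam-rich cells of all live 1, 52.3% of those of all live 2 (78 of 149, 12 shallower cells left out) and 8.05% of those of sorted CAF 2, but in 0 of 694 Epcam-low cells of all live 1, which allows up to 0.432%, and 0.452% of 663 in sorted CAF 1. That limit is on cells with a UMI at this reduced depth. Unthinned, 84.8%, 64.0% and 18.4% of the Epcam-rich cells had one, as did 0.865% of the Epcam-low cells of all live 1 and 1.36% of those of sorted CAF 1. In macrophage or monocyte-like cells the unthinned share was 0.198% in all live 1 and 0.104% in all live 2. In mesothelial-like cells the thinned share was 10.6%, 13.4% and 27.5%, and in macrophage or monocyte-like cells 0% in all live 1 and 2. Median depths were 9584, 7369 and 20631 UMIs in these Epcam-rich cells, 25632 and 22278 UMIs in the Epcam-low cells, and 6653 and 3425 UMIs in the macrophage or monocyte-like ones.

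**Figure D5:**
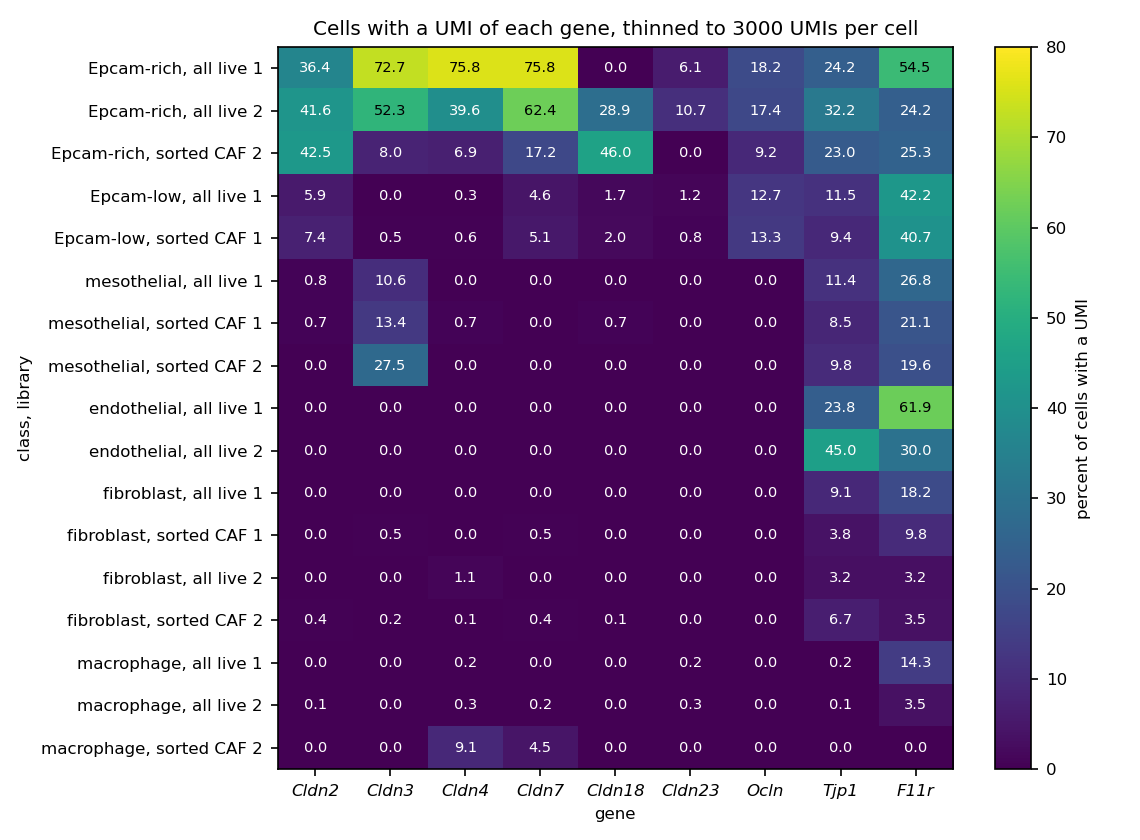
Percent of cells with at least 1 UMI of each gene after thinning each cell to 3000 UMIs (colour from 0 to 80%, value printed in each field), by class and library of at least 20 cells. Macrophage or monocyte-like cells are shown beside them. Cldn3, Cldn4 and Cldn7 are seen in 39.6% to 75.8% of Epcam-rich cells of the all live libraries and in at most 5.13% of Epcam-low cells, and F11r is seen in every class.

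F11r was also seen outside Epcam-rich cells, in 42.2% and 40.7% of Epcam-low cells. It was seen in 61.9% and 30% of endothelial-like cells (21 and 20 cells, 10 shallower ones left out). In mesothelial-like cells its shares were 26.8%, 21.1% and 19.6%. Cldn3 was seen more often than F11r in the mesothelial-like cells of sorted CAF 2. Macrophage or monocyte-like cells had an F11r UMI in 14.3% (all live 1) and 3.49% (all live 2) of cells, and fibroblast-like cells in 18.2% and 3.23%. Leukocytes can express F11r, and the part of free RNA in this share was not tested. By level, B or plasma-like cells of all live 1 had 7.86 CPM (0.952 to 28.4) of F11r from 2 UMIs. The same cells had 78.6 CPM (48.0 to 121) of Cldn7, from 20 UMIs in 4 of 20 cells. Ocln was seen in 12.7% and 13.3% of Epcam-low cells, 18.2%, 17.4% and 9.2% of Epcam-rich cells, and 0% of the mesothelial-like, endothelial-like and fibroblast-like cells. An Epcam-rich cell showed a median of 4 of the 9 members in all live 1, 3 in all live 2 and 2 in sorted CAF 2, an Epcam-low cell 1, and a mesothelial-like or fibroblast-like cell 0.

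Acinar-like cells, which were found in tumor 2 alone (87 and 27 cells of all live 2 and sorted CAF 2), had Cldn3 at 289 and 371 CPM, Cldn4 at 162 and 366 CPM and Cldn7 at 169 and 327 CPM, with Cldn18 at 0 and 19.5 CPM and Cldn2 at 6.81 and 19.5 CPM. Ordered by level, Cldn3 thus stood highest in Epcam-rich cells of the all live libraries, then in acinar-like cells. These ranks overlap between Epcam-rich cells of all live 2 (409 to 477) and acinar-like cells of sorted CAF 2 (293 to 465). Next came mesothelial-like cells and the Epcam-rich cells of sorted CAF 2, which overlap in the mesothelial-like cells of that library but not in those of tumor 1. Epcam-low, fibroblast-like and endothelial-like cells stood lowest and do not differ beyond their intervals. Among the 5 classes compared, Tjp1 stood highest in endothelial-like and Epcam-rich cells, whose intervals overlap. Epcam-low and mesothelial-like cells came next and overlap too in the libraries of tumor 1, and fibroblast-like cells stood lowest. Mesothelial-like cells of sorted CAF 2 (42.9 to 77.6) overlap Epcam-rich cells of all live 1 (45.9 to 105). Those of sorted CAF 1 (19.5 to 37.8) were not separated from fibroblast-like cells. Outside the 5 classes, acinar-like cells had 5.11 CPM (1.05 to 14.9) in all live 2 and 39.1 (16.9 to 77.0) in sorted CAF 2. Pericyte-like cells of sorted CAF 2 had 58.4 CPM (39.9 to 82.4), and macrophage or monocyte-like cells 0 to 1.91 CPM.

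Over the 26 class and library sums of at least 20 cells, the genes most like each member were found among 9144 genes by Pearson's r of log2(CPM + 1); the sums share libraries and depths, and the values are descriptions. Cldn7 was most like Epcam (r = 0.90), Dmbt1 (0.90) and Crb3 (0.89), and Cldn4 most like Tff2 (0.93), Dmbt1 (0.88) and Epcam (0.88). Cldn18 was most like Cftr (0.89), Spink4 (0.87) and Samd5 (0.87), Cldn2 most like Ncmap, Slc44a4 and Tmprss2 (0.96, 0.96 and 0.95), and Cldn23 most like Gjb1, Degs2 and Ncmap (0.93, 0.89 and 0.88). Cldn3, which is shared by epithelial, acinar-like and mesothelial-like cells, had the least close match, Smim22 (0.83), followed by Pmm1 and 0610011F06Rik (both 0.82). Ocln was most like the potassium channel gene Kcnk1 (0.97), Dsp (0.96), which encodes desmoplakin, and Fermt1 (0.96), Tjp1 most like Ephb4, Dab2ip and Wwtr1 (0.95, 0.94 and 0.93), and F11r most like Cyb561, Fbxw9 and Efna1 (0.92, 0.89 and 0.89).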

How the data were processed

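Droplet libraries of 3′ RNA ends were measured in 4 samples (2 tumors, 2 fractions). Each deposited table holds counts of UMIs by gene and barcode, made by the authors with CASAVA 1.4 and Cell Ranger 2.0.0 on mm10, per the submitters' processing notes; counting intervals and limits cover counting error only. The 2 samples of a fraction are 2 tumors, so p-values rest on the spread between 2 tumors at most.

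Barcodes under 500 genes or over 10% mitochondrial counts were left out, which kept 7984 of 8282. The doublet caller's own threshold marked 27 cells (0.338%) and was not used; the 157 cells with the highest doublet scores, 0.8% per 1000 barcodes, were left out. Clustering used scanpy 1.11.5 (2000 variable genes without junction, mitochondrial and ribosomal genes, 30 components, 15 neighbours, resolution 1), and 22 clusters were named from marker lists. UMIs were summed per library, or per tumor and class, and tested with edgeR 4.0.16 in R 4.3.3 (quasi-likelihood, Benjamini-Hochberg over all genes tested, threshold 0.05); DESeq2 1.42.0 was an alternative. The members and lists were chosen with earlier results of these data known. All 9 members are named, and of each other list up to 6 genes per direction with the lowest adjusted p among those that passed; leading genes of clusters are those of highest ratio, and the genes of the gate are given in every library. An allele of the genotype and a gene that the rule would name are not reported here. The labels give both fractions of a tumor the same tumor, which pairs the libraries. Same-tumor deviations correlated at r = 0.698. With 2 libraries a group this value must be equal for both tumors, and that across tumors must be its opposite (-0.698). On simulated data, 100% of 16-fold changes and between 25% and 79% of 4-fold changes were called over the 4 comparisons tested. Simulated counts had a fixed spread and only well-counted genes were changed, so genes with a wider spread can be missed more often. Sequences are from RefSeq on GRCm38.p6 and gene positions from GENCODE M21; protein sequences were not used here.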

Additional observations from a re-analysis of the deposited data

Results flagged for a closer look

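Ocln over whole libraries went in opposite directions in the 2 tumors: it stood at 28.5 CPM in all live 1 and 34.7 CPM in sorted CAF 1, but at 6.46 CPM in all live 2 and 3.39 CPM in sorted CAF 2. The difference between the tumors was not tested. The Epcam-low class, with Ocln at 39.4 and 41.6 CPM, held 694 and 663 cells of the libraries of tumor 1 and 2 cells in each library of tumor 2; its part in the result was not tested.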

How the results depend on the processing

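Over 400 alternative values of the members' log2 differences, 342 kept direction and side of the threshold, 16 fell below it, 28 rose above it and 14 turned direction; of the 16 differences that had passed, 0 turned. Of Epcam-rich against Epcam-low cells, 3 members passed, and 1 with doublets kept, 5 with no filter on low counts, 7 with sums per library (which treats the fractions of a tumor as independent) and 1 with the unnamed clusters as Epcam-low (added after seeing the data); leaving out single tumor sums gave 3 to 5, with 5 without the Epcam-rich sum of tumor 1. Of endothelial-like against fibroblast-like cells, 2 passed, 1 in the all live libraries alone, and 0 to 2 with a sum left out. Of mesothelial-like against Epcam-low cells, 5 passed, and 2 to 5 with a sum left out. Of mesothelial-like against fibroblast-like cells, 1 passed, and 2 with doublets kept, with no filter and with the replicate block; leaving out sums gave 1 to 2. Within ductal epithelial-like cells, 0 passed between the fractions, 2 with the replicate block, and 0 to 2 with a library left out. Apart from the calls given with the results, the block changed no other call of a member. The share of all genes called is given, with the results, for the main and block fits alone. Counts of members in the other fits therefore cannot be set against all genes, and a higher count may go with more calls of every kind.

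The turned values were all of differences that had not passed. Epcam-rich against Epcam-low, Cldn18 was -0.53 with the replicate block, -0.58 with the Epcam-low subgroup moved, -1.16 with the unnamed clusters as Epcam-low, and -8.41 to 4.69 with a sum left out. F11r was 0.20, 0.35 and 0.28 in these 3 fits and reached 0.41 without the Epcam-rich sum of tumor 2. Ocln was 0.29, 0.88 and 0.21 in them, 0.15 in the all live libraries alone and -0.73 to 0.15 with a sum left out. Between the fractions, Cldn3 ranged from -7.49 to 0.48 with a library left out, the latter without all live 2. The cause was not tested. Cldn23, at 0 UMIs in the other class, passed in edgeR and not in DESeq2 against mesothelial-like or fibroblast-like cells (adjusted p = 0.585 and 0.412). Of 126 shares of cells, 70 stayed within their intervals unthinned and 56 moved. The median log2 difference of all genes between endothelial-like and fibroblast-like cells was -0.32 with edgeR and -0.16 with DESeq2. Depth limits all results on cells with few UMIs, and the 21 and 30 endothelial-like cells most.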
